A study of Brassica rapa subsp. pekinensis with 6 samples.

Results

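The aliphatic glucosinolate enzyme genes examined here were 8 *Brassica rapa* gene models taken from the 35616 genes with at least 1 read in the flower bud libraries of Chinese cabbage. They were chosen by identifier, with 2 *MAM* genes (*Bra013007* and *Bra029355*), 1 *CYP79F1* gene (*Bra026058*), 2 *CYP83A1* genes (*Bra032734* and *Bra016908*), and 3 *AOP2* genes (*Bra034180*, *Bra018521*, and *Bra000848*). The deposited lists give identifiers without names, and 0 of the 8 were matched in the RefSeq gene table at hand, so the enzyme names rest on the prior assignment of these identifiers and could not be checked here. All 8 had at least 1 read in at least 1 library, and 5 had reads in all 6.

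The libraries came from developing flower buds at full bloom, 3 from the wild-type line ‘FT’ (F1, F2, and F4) and 3 from the female-sterile mutant *fsm* (M1, M2, and M3). ‘FT’ is a doubled haploid line, and *fsm* was raised from it by ethyl methanesulfonate treatment of isolated microspores. The study takes their genetic backgrounds to be much alike, which was not tested here. It also reports sequence variants detected in ‘FT’ alone and in *fsm* alone. By its read statistics, a smaller share of the ‘FT’ reads mapped to the reference genome, without overlap between the lines. Any effect of these differences on gene levels, or on the ratio of the *CYP83A1* genes, was not tested. Each library is described as buds of several plants mixed together, and the methods also speak of pooling RNA between replicates. The p-values therefore measure the spread between these libraries, which may be technical. The mutated gene is not named, so no targeted gene could be checked in the libraries, and *fsm* represents a single mutant line. No batch is given for library preparation or sequencing, so a batch and the line cannot be told apart.

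Aliphatic glucosinolates are sulfur-rich defence compounds of the cabbage family that are made from methionine. In *Arabidopsis thaliana*, MAM enzymes lengthen the side chain of the amino acid before the core is built. CYP79F1 then turns the elongated methionine into an aldoxime, CYP83A1 oxidises the aldoxime, and AOP2 converts the finished side chain into an alkenyl form. Myrosinase releases the toxic breakdown products when tissue is damaged.

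The libraries held from 25.0 to 25.4 M counted reads in ‘FT’ and from 28.1 to 29.4 M in *fsm* (M, 1000000 reads). A floor of 3 reads corresponded to between 0.102 and 0.120 reads in each M of a library, and intervals and floors cover counting error only. Libraries of the same line differed by 3.01 to 7.37 times the sampling noise per gene, and those of different lines by at least 375 times, so all 6 were kept as separate samples. Levels are given as CPM, the count in each M reads on edgeR's TMM scale, or, between genes, as the deposited RPKM, which is per kilobase of coding length. Calls used 2 limits from the methods of the study. The first threshold is an adjusted p of at most 0.001 with a change of at least 1 on the log2 scale in either direction, and the DEG threshold has the same p with a change of at least 4.

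At each of the 4 enzyme steps, 1 copy had more reads in *fsm* buds than in ‘FT’ buds and passed the test. These were the *MAM* gene *Bra029355*, *CYP79F1*, the *CYP83A1* gene *Bra032734*, and the *AOP2* gene *Bra000848*. Their increases ranged from 3.34-fold to 3.96-fold, among genes picked by passing that test. The other *CYP83A1* gene, *Bra016908*, fell in *fsm*, and the remaining 3 members had at most 7 reads in any library. Of the 8 members, 4 that were higher in *fsm* and 1 that was lower passed the first threshold. Among all 35616 genes tested, 36.7% passed it in either direction, 18.7% being higher and 18% lower in *fsm*. By edgeR, 0 of the 8 passed the DEG threshold, which 5.26% of all genes passed, and the count was also 0 with DESeq2 and limma, while 5 of the 8, and 74.2% of all genes, had an unadjusted p under 0.05. The median log2 fold change of the 7 members with a usable fold was 1.82, against -0.02 over all genes tested. In these mixed bud tissues, fewer cells of a type and less RNA per cell cannot be told apart. The normalized counts of the lines did not overlap for 5 of the 8 members, and for 75.0% of all genes.

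**Figure D1:**
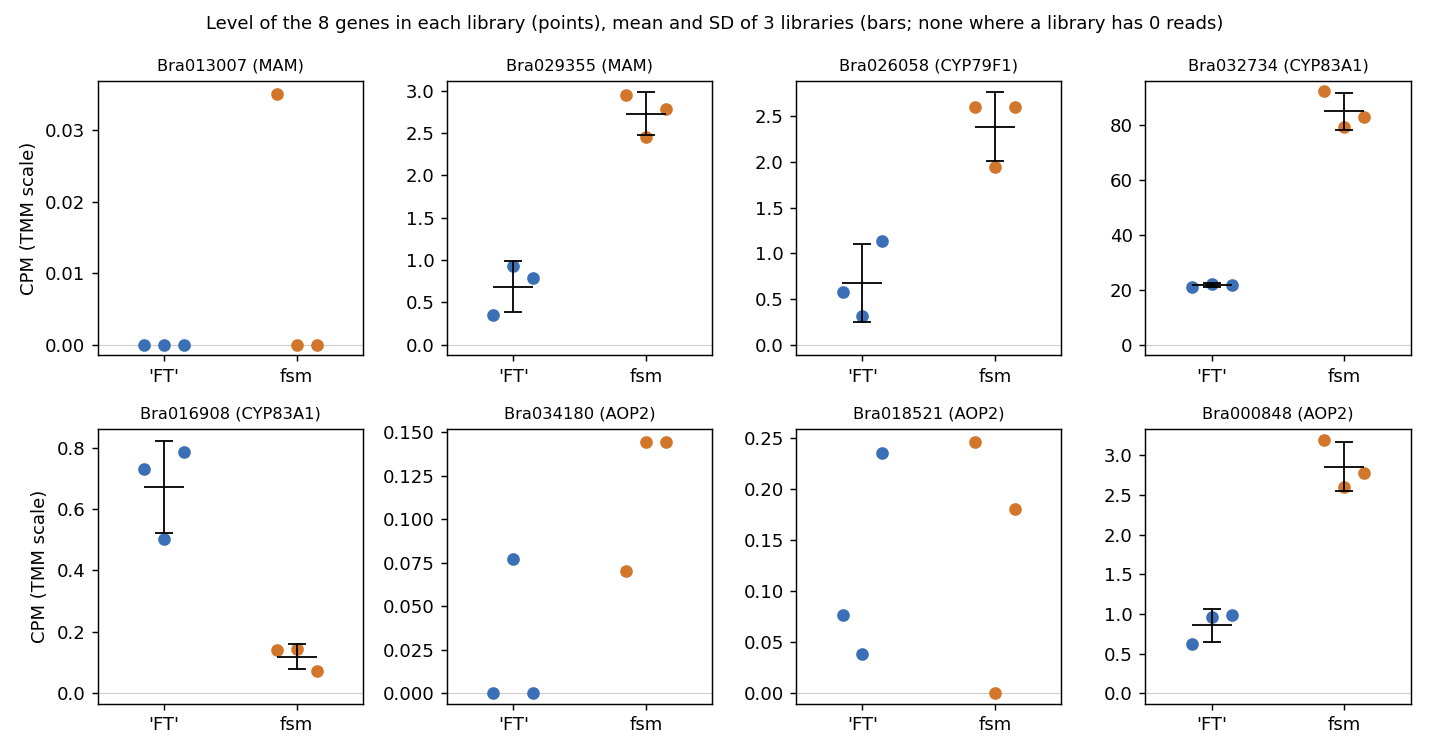
CPM on the TMM scale for each of the 8 genes in the 3 ‘FT’ (blue) and 3 *fsm* (orange) libraries, with the mean and SD of 3 libraries as bars, which are left out where a library had 0 reads. *Bra029355*, *Bra026058*, *Bra032734*, and *Bra000848* were higher in all 3 *fsm* libraries, and *Bra016908* was lower, while the vertical scales differ between panels.

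The *MAM* genes belong to the chain elongation that comes before core synthesis. *Bra029355* had 9 reads in F1, 24 in F2, and 20 in F4, against 84 in M1, 68 in M2, and 77 in M3. Each *fsm* library was above each ‘FT’ library, and F1 was the lowest of the 6. The mean level was 0.686 ± 0.303 CPM (SD, n = 3) in ‘FT’ and 2.73 ± 0.254 CPM (SD, n = 3) in *fsm*. The log2 fold change was 1.99 (standard error 0.27, Benjamini-Hochberg adjusted p = 1.6e-08, edgeR), a 3.96-fold increase.

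*Bra013007*, the other *MAM* gene, was represented by a single read in M1 and by 0 reads in the other 5 libraries. Its coding length in the deposited lists is 5832 bases, against 1443 bases for *Bra029355*. The read covered 125 of those bases, or 2.14%. Expression of this copy was at or below the floor in both lines, so no fold change is given, and a difference between the lines was not detectable at this depth. The *MAM* reads of these buds came almost wholly from *Bra029355*, whose share of the RPKM of the pair was 99.7% in M1 and 100% in the other libraries.

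*CYP79F1* (*Bra026058*) has 1 copy among the members and carries the first step of core synthesis. It had 15 reads in F1, 8 in F2, and 29 in F4, against 74 in M1, 54 in M2, and 72 in M3. The lines did not overlap, but F4 had more than 3 times the reads of F2. The mean was 0.675 ± 0.423 CPM (SD, n = 3) in ‘FT’ and 2.38 ± 0.377 CPM in *fsm*, a difference of 1.82 ± 0.30 on the log2 scale (SE, adjusted p = 7.5e-07, edgeR). The fold depended on single ‘FT’ libraries, with 2.41 on the log2 scale without F4 and 1.47 without F2.

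*CYP83A1* supplied most of the reads of the pathway genes studied here. *Bra032734* had 546 reads in F1, 575 in F2, and 558 in F4, against 2633 in M1, 2204 in M2, and 2303 in M3. It accounted for 84.8% to 90.0% of the reads of all 8 members in the ‘FT’ libraries and for 90.7% to 91.6% in the *fsm* libraries. The mean rose from 21.7 ± 0.645 CPM (SD, n = 3) to 85.1 ± 6.75 CPM (SD, n = 3), a difference of 1.97 ± 0.07 on the log2 scale (SE, adjusted p = 2.2e-26, edgeR). Of the 5 changed members this one has the smallest standard error, and its position among all genes with reads in the line moved from percentile 65.5 to percentile 88.7 by mean RPKM.

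The second copy, *Bra016908*, went the other way. It had 19 reads in F1, 13 in F2, and 20 in F4, but only 4 in M1, 4 in M2, and 2 in M3. Every *fsm* library was below every ‘FT’ library. The mean fell from 0.673 ± 0.150 CPM (SD, n = 3) to 0.119 ± 0.0406 CPM (SD, n = 3), a level 5.47 times higher in ‘FT’, a difference of -2.45 ± 0.58 on the log2 scale (SE, adjusted p = 0.00021, edgeR). The call rests on few reads and was lost when F1, F4, M1, or M3 was left out, with adjusted p-values of 0.0029, 0.0034, 0.0014, and 0.003. The adjusted p ranged from 8e-05 to 0.027 over all alternatives, and the decrease kept its direction in each.

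The 2 *CYP83A1* copies have nearly the same coding length, 1506 and 1509 bases, so their reads can be set side by side. *Bra016908* gave 3.36% of the reads of the pair in F1 (95% exact Clopper-Pearson interval 2.04 to 5.20), 2.21% in F2 (1.18 to 3.75), and 3.46% in F4 (2.13 to 5.29). In *fsm* it gave 0.152% in M1 (0.0413 to 0.388), 0.181% in M2 (0.0494 to 0.463), and 0.0868% in M3 (0.0105 to 0.313). No interval of an ‘FT’ library reached that of an *fsm* library. The log2 ratio of *Bra032734* to *Bra016908* in RPKM was between 4.81 and 5.47 in ‘FT’ and between 9.11 and 10.17 in *fsm*. The means of the lines differed by 4.51 (two-sided exact permutation, p = 0.1, below which 3 libraries against 3 cannot go). This was the only one of the 5 pairs of copies in which both copies had reads in every library, so no such ratio was tested for the other 4 pairs. How reads that fit more than 1 copy were assigned beyond being called unique is not given in the sources used here, so the values of such copies are uncertain.

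**Figure D2:**
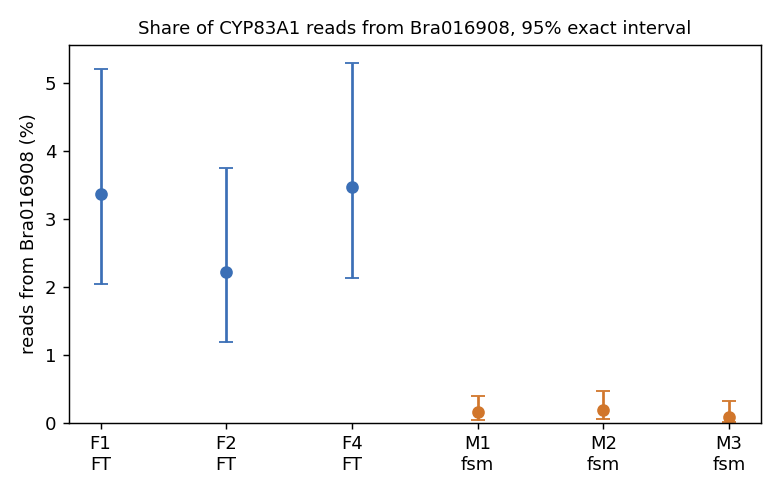
Share of the reads of both *CYP83A1* genes that came from *Bra016908*, in percent, for each library (‘FT’ blue, *fsm* orange), with 95% exact binomial intervals that cover counting error only. The 3 ‘FT’ libraries lie between 2.21% and 3.46%, and the 3 *fsm* libraries are at or below 0.181%.

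AOP2 acts on the side chain after the core is complete. *Bra000848* had 16 reads in F1, 25 in F2, and 25 in F4, against 91 in M1, 72 in M2, and 77 in M3, without overlap. The mean was 0.854 ± 0.207 CPM (SD, n = 3) in ‘FT’ and 2.86 ± 0.309 CPM (SD, n = 3) in *fsm*, a difference of 1.74 ± 0.25 on the log2 scale (SE, adjusted p = 3.2e-08, edgeR), or 3.34-fold.

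The other 2 *AOP2* genes were near the limit of detection. *Bra034180* had 0 reads in F1, 2 in F2, and 0 in F4, against 2 in M1, 4 in M2, and 4 in M3. Over the pooled reads of each line, 2 against 10, the rate in *fsm* was 4.39 times that in ‘FT’ (95% exact interval 0.935 to 41.2), and edgeR gave an adjusted p of 0.14. Both ‘FT’ reads came from F2, and without F2 the adjusted p was 0.047, with 0.047 to 0.53 over all alternatives, so the first threshold was not passed in any. *Bra018521* had 2, 1, and 6 reads in ‘FT’ and 7, 0, and 5 in *fsm*, a rate ratio of 1.17 (95% exact interval 0.453 to 3.14) with an adjusted p of 0.79 in edgeR. Both lines overlapped for both genes in normalized counts. Differences of the size seen in *Bra000848* lie inside the interval of *Bra034180* and just above that of *Bra018521*. These intervals cover counting error only, and the edgeR log2 fold change of *Bra018521* was 0.28 with a standard error of 0.92. A rise as large as that of *Bra000848* was therefore not excluded for *Bra018521* either. *Bra000848* held 86.1% to 92.6% of the *AOP2* RPKM in ‘FT’ libraries and 92.8% to 96.5% in *fsm* libraries (two-sided exact permutation test, p = 0.1).

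**Figure D3:**
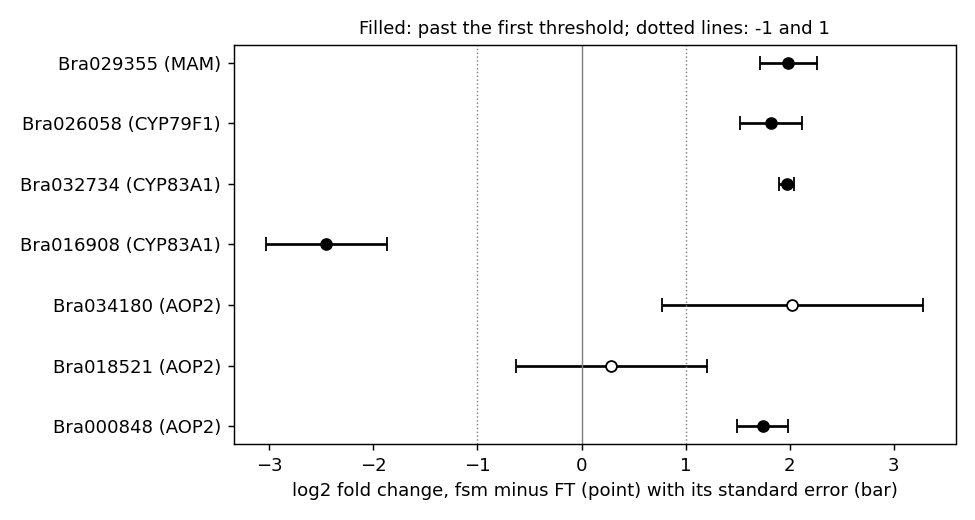
Log2 fold change of *fsm* minus ‘FT’ (points) with the standard error from edgeR (bars) for the 7 members with reads in both lines. Filled points passed the first threshold. The 4 members that rose lie between 1.74 and 1.99, *Bra016908* is at -2.45, and the bars of *Bra034180* and *Bra018521* are much wider.

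The 4 genes that rose were compared with each other in every library, to see whether their proportions shifted between the lines. In all 6 pairs, the log2 ratios of RPKM of the 2 lines overlapped, and the differences between the line means were at most 0.34 (two-sided exact permutation tests, p from 0.3 to 1, adjusted p = 1 over the 6 pairs). The ratio of *Bra032734* to *Bra000848* was 4.30, 3.73, and 3.68 on the log2 scale in F1, F2, and F4, and 4.06, 4.14, and 4.11 in M1, M2, and M3. The ratio of *Bra029355* to *Bra026058* was much less even in ‘FT’, at -0.57, 1.75, and -0.37, against 0.35, 0.50, and 0.27 in *fsm*. Ratios in ‘FT’ rest on few reads, and tests of this size cannot show that proportions were equal. The 4 genes were also picked by passing the first threshold upward in these data, which favours small differences between them.

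Summed over the copies of a step, the *MAM* total was 0.488 ± 0.217 RPKM (SD, n = 3) in ‘FT’ and 1.85 ± 0.173 RPKM in *fsm*. The *CYP79F1* level was 0.425 ± 0.265 RPKM in ‘FT’ and 1.43 ± 0.230 RPKM in *fsm*. The *CYP83A1* total was 15.2 ± 0.415 and 55.2 ± 4.14 RPKM, and the *AOP2* total 1.12 ± 0.295 and 3.41 ± 0.396 RPKM, respectively. The differences between the line means of the log2 totals, which can depart from the log2 ratio of the mean RPKM, were 2.04 for *MAM*, 1.94 for *CYP79F1*, 1.85 for *CYP83A1*, and 1.63 for *AOP2*. Every *fsm* library was above every ‘FT’ library at each step (two-sided exact permutation tests, p = 0.1 each, adjusted p = 0.1 over the 4 steps, the smallest possible). The decrease of *Bra016908* was thus too small in RPKM to turn the direction of the *CYP83A1* total. Each total came mainly from the copy that rose, so the totals are no separate result from the member changes. Among all genes, the normalized counts of the lines did not overlap for 75.0%.

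The order of the members by RPKM was headed in both lines by *Bra032734*, then *Bra000848* and *Bra029355*. In ‘FT’, *Bra029355*, *Bra016908*, and *Bra026058* followed each other with overlapping ranges (0.246 to 0.663, 0.344 to 0.530, and 0.197 to 0.715 RPKM). In *fsm*, the same 3 were apart from each other, with *Bra029355* at 1.65 to 1.98, *Bra026058* at 1.17 to 1.58, and *Bra016908* at 0.0471 to 0.0930 RPKM. *Bra018521*, *Bra034180*, and *Bra016908* could not be ordered in *fsm*, since their neighbouring ranges overlapped. *Bra013007* had the lowest mean in both, but its range overlapped that of *Bra034180* in ‘FT’ and that of *Bra018521* in *fsm*. By mean RPKM, *Bra000848* moved from percentile 22.9 to 36.6 of the genes with reads in the line, *Bra029355* from 17.1 to 30.3, *Bra026058* from 16.1 to 27.7, and *Bra016908* from 16.6 to 7.65.

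Libraries of 1 line differed unevenly between members. Measured as the chi-square over the 3 libraries per degree of freedom, where 1 is counting error alone, the spread in ‘FT’ was 0.589 for *Bra032734*, 3.52 for *Bra029355*, and 6.70 for *Bra026058*. In *fsm* it was 13.6 for *Bra032734*, 0.656 for *Bra029355*, and 1.71 for *Bra026058*. For genes in general, the mean over genes was 3.01 to 7.37 in the pairs of libraries of 1 line. That mean covers genes of every depth from 20 reads, and the measure grows with depth where libraries differ beyond counting error. The comparison therefore cannot show whether the spread of *CYP79F1* and *Bra029355* in ‘FT’ was usual for genes with so few reads. In ‘FT’, the SD of the CPM was 62.7% of the mean for *Bra026058*, 44.2% for *Bra029355*, and 2.97% for *Bra032734*. *Bra032734* had its highest *fsm* level in M1.

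How much of each coding length the reads covered was deposited beside the counts. *Bra026058* was covered over 37.34%, 27.85%, and 81.02% of its coding length in F1, F2, and F4, and over 98.21%, 92.85%, and 96.55% in M1, M2, and M3. *Bra029355* was covered over 42.83% to 66.18% in ‘FT’ and 80.94% to 87.87% in *fsm*. *Bra016908* showed the reverse, with 82.11%, 57.32%, and 74.95% in ‘FT’ and 18.56%, 29.82%, and 12.72% in *fsm*. *Bra034180* was covered over 0%, 10.91%, and 0% in ‘FT’ and 17.8%, 20%, and 16.97% in *fsm*, from at most 4 reads in a library. The lines did not overlap in coverage for these 4 of the 8 members (two-sided exact permutation tests, p = 0.1 each, adjusted p = 0.2 over the 8 members), and for 40.5% of all genes. Coverage of a gene with few reads depends on its read number, so these differences are no separate result from the counts. *Bra034180* had 2 reads in both F2 and M1, so its lack of overlap there rests on where the reads fell.

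*Bra032734* and *Bra000848* were covered almost whole in both lines. *Bra032734* had 99.67% to 99.80% in ‘FT’ and 97.68% to 99.67% in *fsm*, although *fsm* held about 4 times as many of its reads (exact permutation p = 0.2, adjusted 0.32). *Bra000848* had 91.46% to 95.96% in ‘FT’ and 92.73% to 97.92% in *fsm*, and the lines overlapped (exact permutation p = 0.7, adjusted p = 0.933). *Bra018521* was covered over 50.89%, 0%, and 42.11% in M1, M2, and M3, and over 9.71% to 42.19% in ‘FT’.

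**Figure D4:**
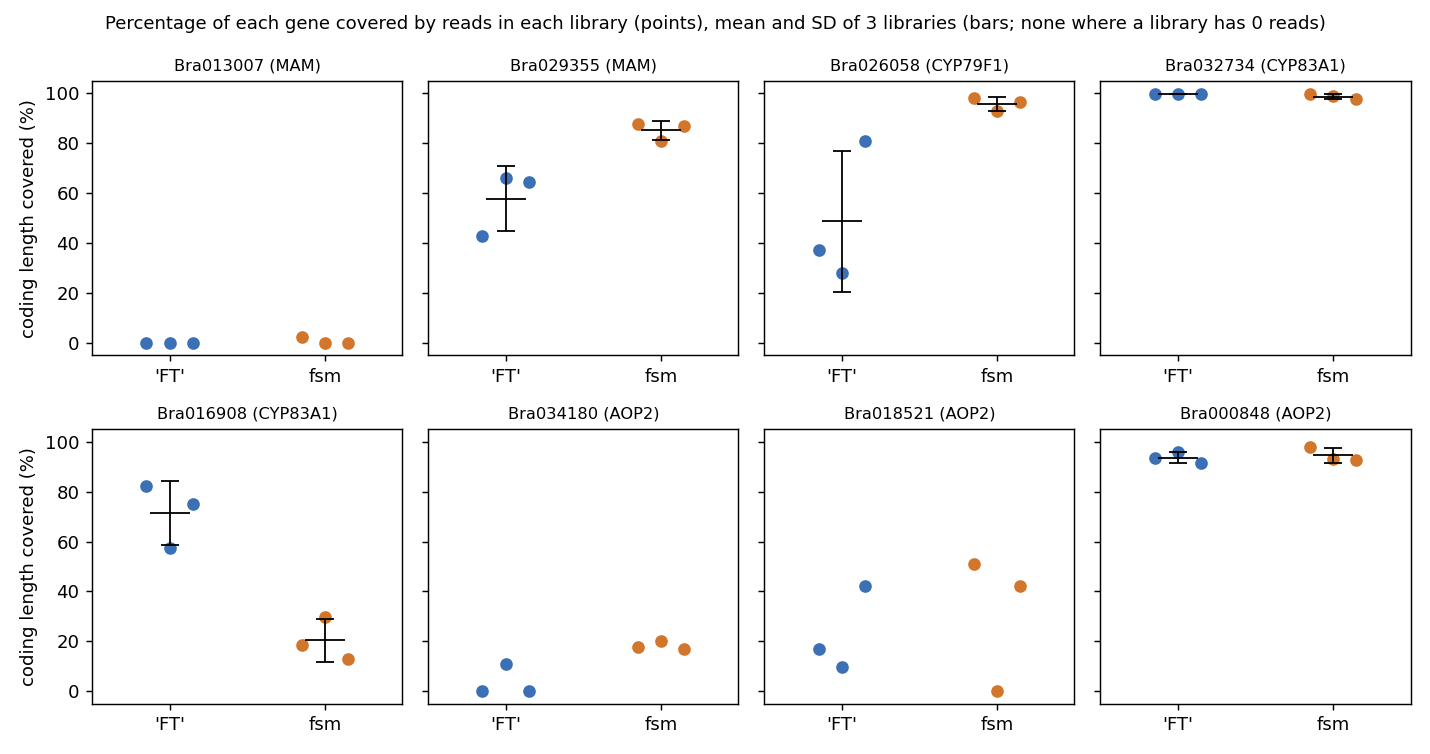
Percentage of the coding length covered by reads for each of the 8 genes in the 3 ‘FT’ (blue) and 3 *fsm* (orange) libraries, with the mean and SD of 3 libraries as bars, left out where a library had 0 reads. Coverage was higher in each *fsm* library for *Bra029355*, *Bra026058*, and *Bra034180*, lower for *Bra016908*, and above 91% in all libraries for *Bra032734* and *Bra000848*. For genes with few reads, coverage depends on the read number.

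Other genes of glucosinolate metabolism could be named only where the DEG list of the study describes them, which gave 6 genes. That list was chosen on these same samples, so the passing of the DEG threshold by all 6 is no independent evidence of a direction or a size, and 4 were higher and 2 lower in *fsm*. *Bra001761* is described as branched-chain aminotransferase 4, which in *A. thaliana* starts the methionine chain elongation that MAM enzymes continue. It had 0 reads in F1, 1 in F2, and 0 in F4, against 22 in M1, 6 in M2, and 12 in M3. The difference was 4.77 ± 1.02 on the log2 scale (SE, adjusted p = 5.7e-05, edgeR). Over the pooled reads the rate ratio was 35.1 (95% exact interval 5.95 to 1421), an interval that leaves out the spread between libraries.

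*Bra011821* and *Bra017871* are described as cytochrome P450 79B2, which in *A. thaliana* acts on tryptophan and opens the indole branch. *Bra011821* had 24, 25, and 15 reads in ‘FT’ and 613, 735, and 771 in *fsm*, a difference of 4.93 ± 0.16 on the log2 scale (SE, adjusted p = 3.4e-29, edgeR). *Bra017871* had 9, 6, and 4 reads in ‘FT’ and 206, 154, and 179 in *fsm*, a difference of 4.68 ± 0.26 on the log2 scale (SE, adjusted p = 2.4e-20, edgeR). Their sizes cannot be set against those of the 8 members, since only genes past the DEG threshold are described in that list. *Bra015935*, described as sulfotransferase 5a, in *A. thaliana* an enzyme of the last core step, went from 4, 2, and 0 reads in ‘FT’ to 308, 304, and 265 in *fsm*, a difference of 6.99 ± 0.29 on the log2 scale (SE, adjusted p = 5.3e-25, edgeR).

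On the breakdown side, *Bra036914*, described as a myrosinase, had 558, 502, and 463 reads in ‘FT’ and 14, 38, and 20 in *fsm*, a difference of -4.51 ± 0.17 on the log2 scale (SE, adjusted p = 2.7e-26, edgeR). *Bra014231*, described as a myrosinase-binding protein, had 29, 37, and 18 reads in ‘FT’ and 0, 0, and 4 in *fsm*, a difference of -4.38 ± 0.65 on the log2 scale (SE, adjusted p = 8.9e-08, edgeR). Both breakdown genes were lower in the line in which the 4 enzyme genes were higher. They are known only from a list of genes past the DEG threshold in these samples, and other myrosinase genes could not be named. No statement on breakdown genes as a group can therefore be made.

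Among 24814 genes with a mean normalized count of at least 50, *Bra039116*, *Bra001378*, and *Bra028297* had profiles over the 6 libraries most like that of *CYP79F1*. Likeness was the root mean square difference of centred log2(CPM + 1), which was 0.0809, 0.101, and 0.102. Like *CYP79F1*, each had its lowest ‘FT’ level in F2, its highest ‘FT’ level in F4, and its lowest *fsm* level in M2, an order for which the ranking itself selects. The 1 added to the CPM shrinks the change of a gene as low as *CYP79F1*, so the ranking favours more abundant genes with smaller folds. The folds of the 3 genes were 2.62, 2.65, and 2.29, against 3.53 for *CYP79F1*. Of the other members, *Bra000848* was nearest to *CYP79F1*, at 0.222, and *Bra029355* was next, at 0.278. These values would place them only at ranks 745 and 2471, and both of them, like *CYP79F1* itself, had too few reads to enter the ranking. *Bra032734*, which rose 3.92-fold and had enough reads, would stand only at rank 9077. Profiles over the 6 libraries include the difference between the lines, which also differed in depth, and no test was made.

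Markers of other tissues in the buds were read beside these values. Of 18 genes annotated with pollen wall assembly, 16 were lower in *fsm* past the first threshold and 0 higher. Their median log2 fold change was -2.14, and their summed level was 9565 to 9852 CPM in ‘FT’ and 3019 to 3290 CPM in *fsm*. Of 10 photosystem genes, 3 were higher and 0 lower past that threshold, which 36.7% of all genes passed in either direction, with a median log2 fold change of 0.79 and summed levels of 2335 to 2476 CPM in ‘FT’ and 3499 to 3965 CPM in *fsm*. The 6 pollen tube genes, which the study had picked as changed in these samples, were all lower, with 2348 to 2443 CPM in ‘FT’ and 124 to 137 CPM in *fsm*. No gene of these lists was at 0 in any library. The part of these shifts in the changes of the glucosinolate genes was not tested.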

How the data were processed

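RNA-Seq libraries of flower buds, 3 of ‘FT’ and 3 of *fsm*, were analysed. The authors filtered the reads and aligned them with SOAP2 to version 1.5 of the *Brassica rapa* genome. The deposited counts are headed as uniquely matched reads per gene and are not normalized. Their sum exceeds the totals of unique and of all mapped reads that the study gives for each library, for which no source gives a reason, so whether each read was counted once is uncertain. A gene absent from a list was taken as 0 reads. The RPKM values deposited by the authors equal the count per kilobase of coding length and per 1000000 counted reads. The deposited coverage is the percentage of that length covered by reads. DESeq is named in the submitters' processing notes.

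Counts were compared across all 35616 genes in R 4.3.3 with edgeR 4.0.16 (TMM, quasi-likelihood test, prior count 0.125, no low-count filter, no covariates), with p-values adjusted by the Benjamini-Hochberg method. The standard error is the absolute log2 fold change over the square root of F. The code was tested on simulated data. The alternatives used DESeq2 1.42.0 (size factors and test), total counts, a low-count filter, a prior count of 2, limma 3.58.1 on log2(RPKM + 1) or log2(RPKM + 0.1), a replicate block, and leaving out each library.

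The members, lists, and tests were chosen with earlier results of these data known. Named genes are all members, the glucosinolate genes described in the DEG list of the study, and the 3 genes most like *CYP79F1*. Photosystem and pollen wall genes were taken by GO term from the listed part of a gene table of the study, and pollen tube genes from its text. No sequence is printed, since none could be tied to these identifiers.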

Additional observations from a re-analysis of the deposited data

How the results depend on the processing

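With limma on log2(RPKM + 1), 2 of the 5 members still passed the first threshold, *Bra032734* and *Bra000848*, so that 2 in place of 4 were higher and 0 in place of 1 lower. The pseudocount exceeds the RPKM of most members in ‘FT’. The number lower was also 0 with the replicate block, and 0 to 1 when each library was left out. The count past the DEG threshold was 0 in each setting. *Bra026058* missed the p limit with limma on log2(RPKM + 0.1), at a log2 fold change of 1.66 (adjusted p = 0.0025, with 2.6e-08 to 0.0025 over its alternatives). Among the members not called, the log2 fold change of *Bra018521* turned to -0.12 without F2 and to -0.36 without M1, and was 1.24 without F4. Its coverage difference ranged from -1.94 percentage points without M1 to 23.5 without M2, and that of *Bra000848* from -0.79 without M1 (and -0.23 without F4) to 2.02 without F2. Leaving out each library gave log2 differences of 1.60 to 2.32 for the *MAM* total, 1.48 to 2.41 for *CYP79F1*, 1.80 to 1.90 for *CYP83A1*, 1.40 to 1.78 for *AOP2*, and 4.20 to 4.73 for the ratio of the *CYP83A1* copies. Other scalings moved the median log2 fold change of genes with at least 10 reads by less than 0.1.

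Both lines share replicate numbers 1 and 2 only. In a fit of those 4 libraries blocked by replicate number, *Bra016908* had a log2 fold change of -2.07 and an adjusted p of 0.027 (edgeR), and 4 members passed. No source says that these numbers pair the libraries, and the mean r of deviations from the line means of same-numbered libraries was 0.00788 across genes. Depth limits the 3 members with at most 7 reads in a library.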
